A study of Mus musculus with 6 samples.

Results

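Transcripts of 10 genes of the meiotic chromosome axis and of meiotic recombination were followed in mouse embryonic stem cells with and without the C-terminal part of Dido3. The genes were Sycp1, Sycp2, Sycp3, Stag3, Smc1b, Rec8, Hormad1, Dmc1, Spo11 and Stra8, taken by name, and all 11 probe sets that the platform annotation gives them were used. These 10 genes stand among 18193 genes measured, and were chosen with earlier results of these data known. The arrays form 2 groups of 3. Both groups are embryonic stem cells cultured side by side under self-renewal conditions, with leukemia inhibitory factor (LIF) in the medium. The cells were either wild type or carried the genotype Dido3deltaCT, in which the Dido3 protein ends before its C-terminal part. Dido3 is the longest product of Dido1. The titles call the 3 arrays of a group biological replicates, but name neither the cell lines nor how many there were. Each p-value therefore sets the group difference against the spread between these cultures, and cannot tell genotype from cell line. Values are log2 expression values per probe set, a level; differences are given on the same log2 scale as truncated minus wild type, where 1 unit is a doubling. A change was called when the limma adjusted p was under 0.05.

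Meiosis pairs homologous chromosomes and exchanges DNA between them. Each chromosome is first folded along a protein axis built from meiotic forms of cohesin (the ring that holds sister DNA molecules together), from SYCP2 and SYCP3, and from HORMA-domain proteins such as HORMAD1; SYCP1 then zips the paired axes together into the synaptonemal complex. SPO11 cuts the DNA and DMC1 leads the cut ends into the homologous chromosome. STRA8, induced by retinoic acid, switches the programme on in germ cells. In embryonic stem cells these genes belong to the germline genes that DNA methylation and a variant Polycomb complex with E2F6, MGA, MAX and PCGF6 are known to hold down. The location of Dido3 in spermatocytes has been tied to assembly of the synaptonemal complex.

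The libraries differed in ways that the group names do not describe, and some of these differences followed the groups. All 8 embryonic stem cell markers, Pou5f1, Nanog and Sox2 among them, lay above the median of all probe sets (4.82), and 0 of them passed the test over genes. Without overlap, 6 of the 8 were higher and 1 lower in the truncated cells, where 11.6% and 10.9% of all genes were. A second probe set of Klf4, 1417395_at, chosen after its values were seen, was higher by 0.85 (limma adjusted p = 0.0280 over probe sets). The mean of the 8 markers was 11.14 to 11.38 in wild-type and 11.42 to 11.51 in truncated arrays, and its part in the results was not tested. The mean of 20 fibroblast markers was 8.86, 8.72 and 5.83 in wild-type replicates 1, 2 and 3, and 8.31, 6.97 and 8.30 in truncated replicates 1, 2 and 3. Wild-type replicate 3 and truncated replicate 2 also had the high poly-A spike-in controls (bacterial RNAs added during labelling), with means of 12.1 and 12.5 against 6.12 to 7.85 in the other 4 arrays. Differences are also given within those 4 arrays, called dim-spike, and within the pair, called bright-spike. The Y-linked gene Eif2s3y was at 8.43 to 8.69 in wild-type arrays and at 3.43 to 3.86 in truncated arrays, so the truncation and whatever that difference stands for cannot be told apart. None of the 10 genes is sex-linked, but this does not set them apart from that difference between the groups. The 3′ over 5′ brightness of beta-actin controls, a sign of RNA quality, was 0.956 to 1.17 log2 units in wild-type and 0.828 to 0.869 in truncated arrays. For Gapdh controls it was 0.297 to 0.317 in wild-type and 0.197 to 0.238 in truncated arrays. Neither overlapped between the groups, so RNA quality and the truncation cannot be told apart. The 5 probe sets of Dido1 disagreed. The representative one, 1456405_at, differed by −1.50 (limma adjusted p = 0.0104 over genes) and 1437647_at by −1.47 (0.00106 over probe sets), while 1437182_at differed by 0.68 (0.0721) and 1431258_at and 1444744_at by 0.05 and 0.03. Averaged over its probe sets, Dido1 differed by −0.44 (adjusted p = 0.0374).

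Of the 10 genes, 2 rose in the truncated cells, 1 fell and 7 did not pass. Hormad1 and Stag3 rose 3.37-fold and 2.41-fold, and Sycp3 fell 3.63-fold, so components of the same chromosome axis moved in opposite directions. Over all genes, 2.70% were called higher and 1.97% lower. With autosomal genes alone, 319 of 17404 were called higher and 306 lower. At the level of single probe sets, where p-values were adjusted over 45037 of them, 1 of the 11 was called higher (Hormad1) and 1 lower (Sycp3), against 1.68% and 1.12% of all probe sets; Stag3 narrowly missed there. The median difference of the 10 genes was 0.24, against 0.01 over all genes. That median was 0.52 within the 4 dim-spike arrays and −0.06 within the bright-spike pair. Counted by groups that did not overlap, 3 of the 10 genes were higher and 2 lower in the truncated cells, where 11.6% and 10.9% of all genes were.

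**Figure D1:**
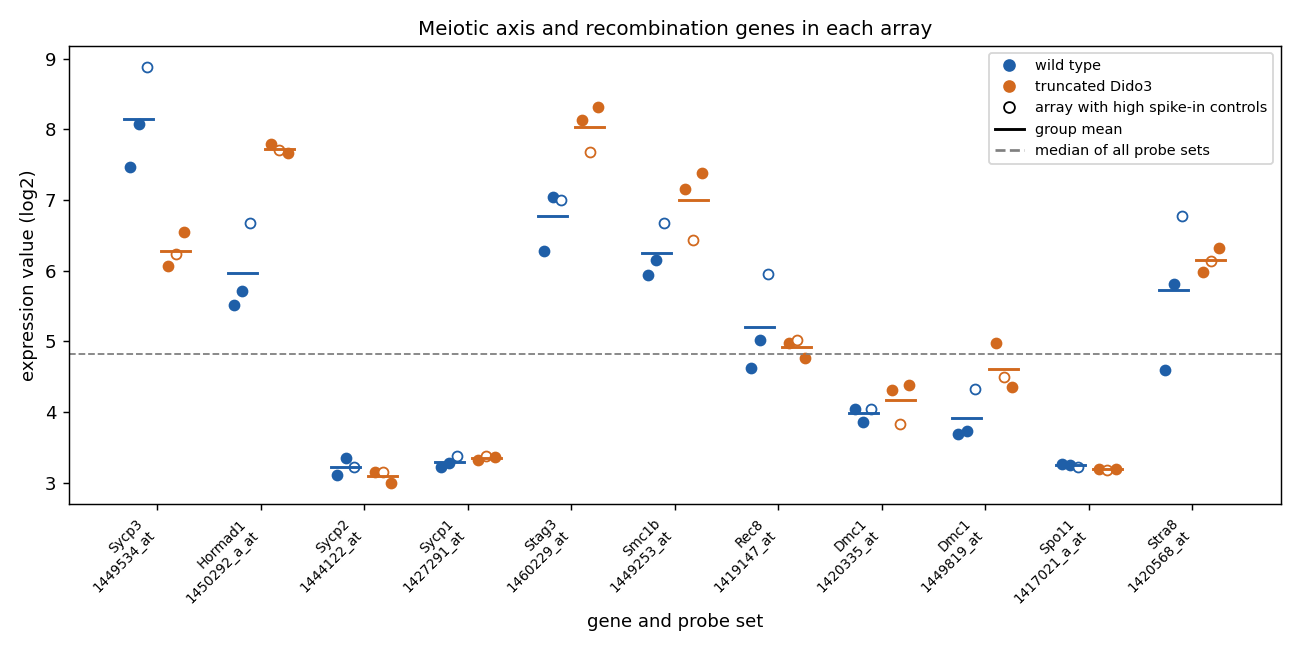
Log2 expression value (vertical axis) of each probe set of the 10 genes in the 3 wild-type (blue) and 3 truncated (orange) arrays; short lines are group means, open circles the 2 bright-spike arrays and the dashed line the median of all probe sets, 4.82. Sycp3 is lower in all 3 truncated arrays, Hormad1 and Stag3 are higher in all 3, and Sycp1, Sycp2 and Spo11 stay near the bottom of the scale in every array.

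Sycp3 encodes the main building block of the lateral axis. Its probe set 1449534_at read 7.47, 8.07 and 8.88 in wild-type replicates 1, 2 and 3, and 6.06, 6.23 and 6.55 in truncated replicates 1, 2 and 3. The groups did not overlap: the lowest wild-type array lay 0.92 above the highest truncated one. The difference was −1.86 (SE 0.34), with a limma adjusted p of 0.0329 over genes and 0.0407 over probe sets. Even the truncated arrays stayed above the median of all probe sets. In a culture, fewer cells with a transcript and less of it per cell cannot be told apart. Within the 4 dim-spike arrays it was −1.46 and within the bright-spike pair −2.66. The call was lost in those 4 arrays alone (adjusted p = 0.0546), and without wild-type replicate 2 or truncated replicate 1, 2 or 3 (0.0974 to 0.158).

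Hormad1 encodes a HORMA-domain protein of unsynapsed axes that is needed for normal break formation and for the surveillance of pairing. Its probe set 1450292_a_at read 5.51, 5.71 and 6.68 in wild-type replicates 1, 2 and 3, and 7.79, 7.70 and 7.67 in truncated replicates 1, 2 and 3. The truncated arrays were close together (SD 0.06) and the wild-type arrays spread (SD 0.62), with 0.99 between the groups. The difference was 1.75 (SE 0.29), with a limma adjusted p of 0.0232 over genes and 0.0292 over probe sets. Within the 4 dim-spike arrays it was 2.12, and passed there alone (adjusted p = 0.00917); within the bright-spike pair it was 1.02. The call was lost without wild-type replicate 1 or 2 or any 1 truncated array (0.0518 to 0.123), and without wild-type replicate 3 the difference was 2.11 (adjusted p = 0.000739).

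SYCP2, the partner of SYCP3 on the lateral axis, and SYCP1, the zipper of the synaptonemal complex, were both read near the bottom of the scale. Sycp2 (1444122_at) was at 3.11, 3.34 and 3.22 in wild-type replicates 1 to 3 and at 3.15, 3.15 and 2.99 in truncated replicates 1 to 3, a difference of −0.13 (SE 0.10; limma adjusted p = 0.616). Sycp1 (1427291_at) was at 3.22, 3.28 and 3.38 in wild-type replicates 1 to 3 and at 3.33, 3.38 and 3.36 in truncated replicates 1 to 3, a difference of 0.06 (SE 0.09; adjusted p = 0.795). Groups overlapped for both genes, and every array was below the median of all probe sets. At such values a probe set gives little more than background, so a small change would not be seen.

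Cohesin in meiosis carries its own subunits: STAG3 in place of STAG1 or STAG2, SMC1B in place of SMC1A, and REC8 in place of RAD21, with SMC3 shared. Stag3 (1460229_at) read 6.27, 7.05 and 7.00 in wild-type replicates 1 to 3 and 8.13, 7.68 and 8.31 in truncated replicates 1 to 3. The lowest truncated array lay 0.63 above the highest wild-type array. The difference was 1.27 (SE 0.25), and the limma adjusted p was 0.0412 over genes and 0.0517 over probe sets, on either side of the threshold. Within the 4 dim-spike arrays it was 1.56 and did not pass alone (adjusted p = 0.0515), and within the bright-spike pair it was 0.68. The call was also lost with any array but wild-type replicate 3 left out (0.0575 to 0.177).

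Smc1b (1449253_at) read 5.94, 6.15 and 6.68 in wild-type replicates 1 to 3 and 7.16, 6.44 and 7.39 in truncated replicates 1 to 3. Truncated replicate 2 lay within the wild-type range, and the difference of 0.74 (SE 0.29) did not pass (limma adjusted p = 0.232). Within the 4 dim-spike arrays the difference was 1.23 and passed (adjusted p = 0.0248), while within the bright-spike pair it was −0.24. Rec8 (1419147_at) read 4.62, 5.02 and 5.95 in wild-type replicates 1 to 3 and 4.97, 5.02 and 4.76 in truncated replicates 1 to 3. The truncated arrays lay inside the wild-type range, with a difference of −0.28 (SE 0.32; adjusted p = 0.738).

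Among the mitotic counterparts, only Smc1a passed. It is X-linked, and rose by 0.64 (SE 0.13; limma adjusted p = 0.0457), with means of 9.54 ± 0.10 for wild type and 10.18 ± 0.22 for truncated (SD, n = 3). Its other probe sets, 1417831_at and 1417832_at, differed by 0.71 and 0.54 without passing over probe sets (adjusted p = 0.109 and 0.0663). Stag1 differed by −0.06 and Stag2 by −0.01 (adjusted p = 0.893 and 0.990). Rad21, which holds the ring closed, differed by −0.12 and Smc3 by −0.06 (adjusted p = 0.672 and 0.810). All 17 genes of mitotic cohesin and its regulators were read above the median of all probe sets; 1 rose, 0 fell and 16 stayed short of the threshold, and the median difference was −0.10. Smc1a lost its call without wild-type replicate 1, 2 or 3 or truncated replicate 1 or 3, with adjusted p up to 0.189. Whether a meiotic subunit changed more than its mitotic counterpart was not tested.

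**Figure D2:**
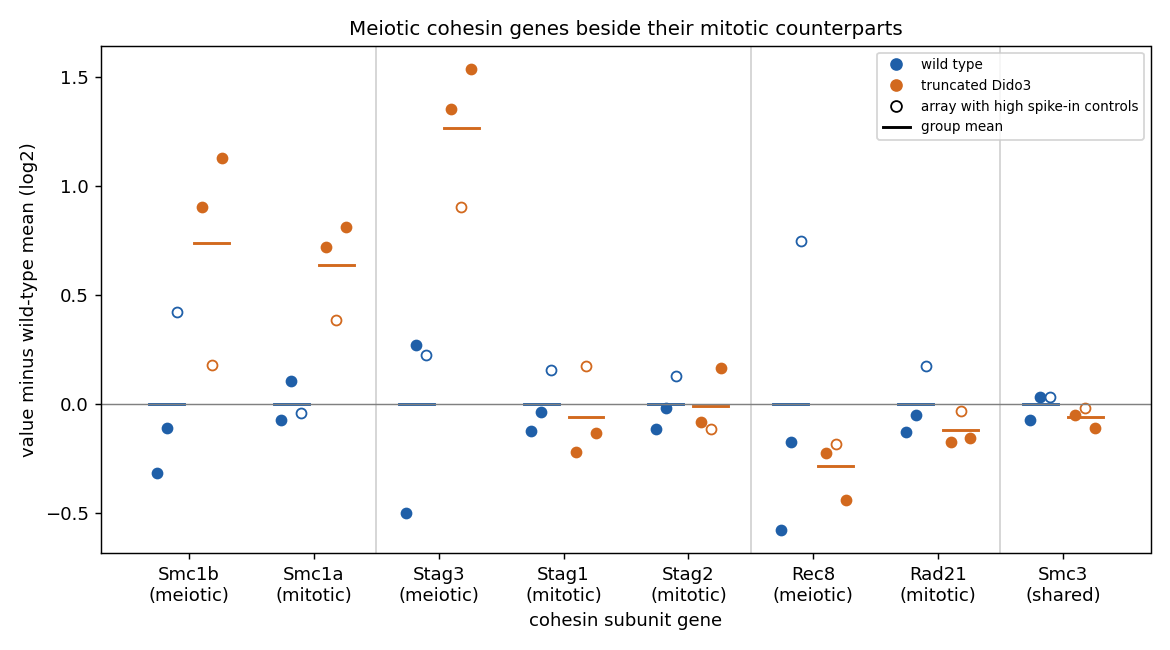
Value minus the wild-type mean of the same probe set (log2, vertical axis) for cohesin genes in each array, wild type in blue and truncated in orange; short lines are group means and open circles the 2 bright-spike arrays. Stag3 and Smc1a are higher in all 3 truncated arrays, by 1.27 and 0.64 on average, 1 truncated array of Smc1b falls within its wild-type range, and Stag1, Stag2, Rad21 and Smc3 differ by −0.12 to −0.01.

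SPO11, the enzyme that makes the meiotic breaks, was read at the bottom of the scale: probe set 1417021_a_at gave 3.26, 3.25 and 3.23 in wild-type replicates 1 to 3 and 3.20, 3.17 and 3.19 in truncated replicates 1 to 3. The groups did not overlap, but the gap was 0.03 log2 units and the difference of −0.06 (SE 0.08) did not pass (limma adjusted p = 0.791). DMC1, the meiotic strand-exchange protein, had 2 probe sets, both with means below the median of all probe sets. The brighter, 1449819_at, read 3.69, 3.72 and 4.33 in wild-type replicates 1 to 3 and 4.97, 4.49 and 4.35 in truncated replicates 1 to 3. Its groups were 0.03 apart, and the difference of 0.69 (SE 0.23) did not pass (adjusted p = 0.158); without wild-type replicate 3 it was 0.90 and passed (adjusted p = 0.0437). The second, 1420335_at, read 4.04, 3.86 and 4.04 in wild-type replicates 1 to 3 and 4.31, 3.83 and 4.38 in truncated replicates 1 to 3. It overlapped between the groups and differed by 0.19 (adjusted p = 0.672 over probe sets). Averaged, the Dmc1 probe sets differed by 0.44 (adjusted p = 0.183).

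STRA8 helps to switch on the meiotic programme in germ cells. Its probe set 1420568_at had the largest spread among wild-type arrays of the 10 genes, with 4.60, 5.81 and 6.77 in replicates 1 to 3 (SD 1.09). The truncated replicates 1 to 3 read 5.98, 6.13 and 6.33 (SD 0.17), inside the wild-type range. The difference was 0.42 (SE 0.49; limma adjusted p = 0.749). This was 0.95 within the 4 dim-spike arrays and within the bright-spike pair −0.64.

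**Figure D3:**
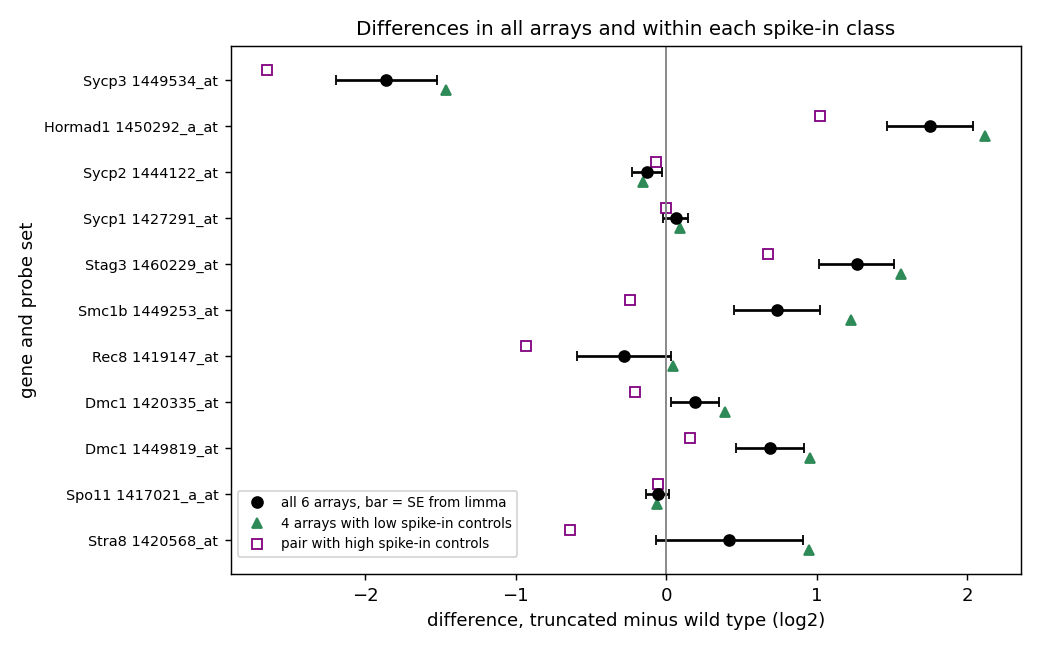
Difference of truncated minus wild type (log2, horizontal axis) for each probe set in all 6 arrays (circle, bar = SE), within the 4 dim-spike arrays (triangle) and within the bright-spike pair (open square). Sycp3, Hormad1 and Stag3 keep their direction in both classes, which their non-overlapping groups fix, while Smc1b is at 1.23 and −0.24.

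A shared pattern lay within the wild-type group. Wild-type replicate 1 was the lowest wild-type array for 9 of the 10 genes, where it was the lowest for 33.8% of all genes. Wild-type replicate 3 was the highest for 7 of the 10, against 31.8% of all genes. The wild-type SD exceeded the truncated SD for 9 of the 10 genes, against 58.2% of all genes. These counts were chosen after the values were seen. They rest on the same few arrays and include probe sets near background, such as those of Sycp1 and Dmc1. Stag3, whose mean lay above the median of all probe sets, read 7.05 in wild-type replicate 2 and 7.00 in wild-type replicate 3. Sycp3, Hormad1, Smc1b, Rec8 and Stra8, also above that median, were each highest among the wild-type arrays in replicate 3. That array had the lowest fibroblast mean (5.83) and, of the wild-type arrays, the highest mean of embryonic stem cell markers (11.38, against 11.14 and 11.24 in replicates 1 and 2). For all 6 genes above the median, the difference was lower within the bright-spike pair than within the other 4 arrays, as it was for 48.8% of all genes above the median. With the fibroblast mean as a covariate, the differences were −1.84 for Sycp3, 1.77 for Hormad1 and 1.27 for Stag3, and all 3 passed (limma adjusted p = 0.00557, 0.00203 and 0.0255). That fit called 1968 of 18193 genes, against 850 without the covariate. The bright-spike pair had the lowest fibroblast means (5.83 and 6.97), so this covariate also follows the spike-in class. The part of fibroblast content in the differences was not tested.

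Markers of later germ cells were read beside these genes. Of 16 spermatocyte and spermatid markers, 0 passed the limma test over genes (smallest adjusted p = 0.0513) and 11 had means below the median of all probe sets, among them the spermatid nuclear protein genes Tnp1 (4.10 and 4.08 in wild-type and truncated cells) and Tnp2 (3.72 and 3.73) and the acrosomal protease gene Acr (4.69 and 4.63). The mean of the list was 4.52 to 4.54 in wild-type and 4.56 to 4.61 in truncated arrays, without overlap. The protamine gene Prm1 and the germ cell helicase gene Ddx4 were among the 5 above the median, at 6.41 and 6.59 and at 6.33 and 5.64. Differences on the list ran from −0.69 to 0.53, with 11 markers higher and 5, Ddx4 among them, lower in the truncated cells. Of 6 spermatogonial markers measured, 1 rose, Uchl1, by 0.46 (adjusted p = 0.0473), and 0 fell, against 2.70% and 1.97% of all genes. Differences on this list ran from −0.93 to 0.46, with 4 markers higher and 2 lower and a median of 0.02. Without overlap, 1 of the 6 was higher and 1 lower, where 11.6% and 10.9% of all genes were.

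Of 12 other genes of the synaptonemal complex and axis measured, 2 rose, 0 fell and 10 stayed short of the threshold. The median difference was 0.36 against 0.01 over all genes, of which 2.70% were called higher and 1.97% lower. This list and the other lists were chosen with earlier results of these data known. Syce1, a central element protein that joins the paired axes, read 6.83, 7.26 and 6.50 in wild-type replicates 1 to 3 and 9.41, 8.86 and 9.42 in truncated replicates 1 to 3. Its groups were far apart, and the rise of 2.37 (SE 0.23; limma adjusted p = 0.00473), or 5.16-fold, was 2.37 within the 4 dim-spike arrays and 2.36 within the bright-spike pair. Syce1 passed under all 18 alternatives run, each array left out in turn included. Majin, which ties telomeres to the nuclear envelope, rose by 0.58 (adjusted p = 0.0433) at means of 3.96 and 4.54, below the median of all probe sets, and lost its call with any 1 array left out (0.0535 to 0.157).

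Of 17 other meiotic recombination genes measured, 1 rose, 1 fell and 15 stayed short of the threshold, and the median difference was −0.06. Tex15, needed for loading recombination proteins and for silencing transposons in male germ cells, read 5.84, 5.02 and 6.59 in wild-type replicates 1 to 3 and 8.49, 8.21 and 8.50 in truncated replicates 1 to 3. All truncated arrays were above all wild-type arrays, and the difference was 2.58 (SE 0.36; limma adjusted p = 0.0134). Mnd1, a subunit of the HOP2-MND1 complex that assists DMC1, read 7.31, 7.46 and 7.63 in wild-type replicates 1 to 3 and 5.55, 6.26 and 5.72 in truncated replicates 1 to 3. It fell by 1.62 (SE 0.19; adjusted p = 0.0082), while the gene of its partner, Psmc3ip, differed by −0.39 (adjusted p = 0.329). Tex15 lost its call without truncated replicate 1 or 3 (0.0883 and 0.0837), and Mnd1 without those or wild-type replicate 2 (0.0502 to 0.0585). With the 4 dim-spike arrays alone, 2 genes of this list were called higher and 3 lower, among 537 higher and 394 lower of all 18193 genes.

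Of 17 genes of meiotic entry and retinoic acid signalling, 2 rose, 0 fell and 15 stayed short of the threshold, and the median difference was 0.07. Dazl, an RNA-binding protein that prepares germ cells for meiosis, read 4.99, 5.09 and 6.77 in wild-type replicates 1 to 3 and 7.89, 7.56 and 8.41 in truncated replicates 1 to 3. The groups did not overlap, and the difference of 2.33 (SE 0.49; limma adjusted p = 0.0465) was 3.11 within the 4 dim-spike arrays and 0.79 within the bright-spike pair. Its second probe set, 1449502_at, differed by 2.08 and did not pass over probe sets (adjusted p = 0.0896). Sohlh2, a transcription factor of early germ cells, rose by 1.61 (SE 0.22; adjusted p = 0.0126), from 6.80 ± 0.42 to 8.41 ± 0.21 (SD, n = 3 each). The retinoic acid receptor genes Rara, Rarb and Rarg did not pass (adjusted p = 0.990, 0.885 and 0.610). Dazl lost its call with any array but wild-type replicate 3 left out (adjusted p up to 0.187), and Sohlh2 without truncated replicate 1 or 3 or wild-type replicate 2 (up to 0.0856).

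Genes of mitotic homologous recombination, the somatic relative of the DMC1 pathway, were lower where they changed. Of 18 measured, 0 rose, 3 fell and 15 did not pass. The median difference was −0.23, and 11 of the 18 were lower without overlap, where 10.9% of all genes were. Nbn, of the MRN complex that senses and trims breaks, fell by 0.84 (SE 0.11; limma adjusted p = 0.0120). Brca2, which in meiosis helps to load DMC1, fell by 0.65 (SE 0.10; adjusted p = 0.0225). Rad51c fell by 0.54 (SE 0.12; adjusted p = 0.0496), and its second probe set, 1423026_at, by 0.75 (0.0162 over probe sets). With the 4 dim-spike arrays alone, 1 of these genes was called, and leaving out 1 array gave 0 to 3. Nbn lost its call without truncated replicate 1 or 3 (0.0657 and 0.0681), Brca2 without any truncated array or wild-type replicate 2 (0.0667 to 0.108), and Rad51c without any 1 of the 6 arrays (0.0714 to 0.180).

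Of 23 known repressors of germline genes measured, 0 rose, 1 fell and 22 stayed short of it, and the median difference was −0.07. The gene that fell was Dnmt3a, a DNA methyltransferase (−1.15, SE 0.17; limma adjusted p = 0.0181). Within the 4 dim-spike arrays it differed by −1.34 and within the bright-spike pair by −0.76. It lost its call without truncated replicate 1 or 3 or wild-type replicate 2 (0.0746 to 0.106). Averaged with its other probe sets, Dnmt3a differed by −0.44 and did not pass (adjusted p = 0.140). Dnmt1, which copies methylation after replication, differed by −0.43 (0.0842) and Mga by −0.54 (0.0678). Neither passed, nor did E2f6 at 0.40 (0.133) or Pcgf6 at −0.10 (0.793). Averaged over their probe sets, E2f6 differed by 0.026 (0.937) and Mga by −0.14 (0.536).

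**Figure D4:**
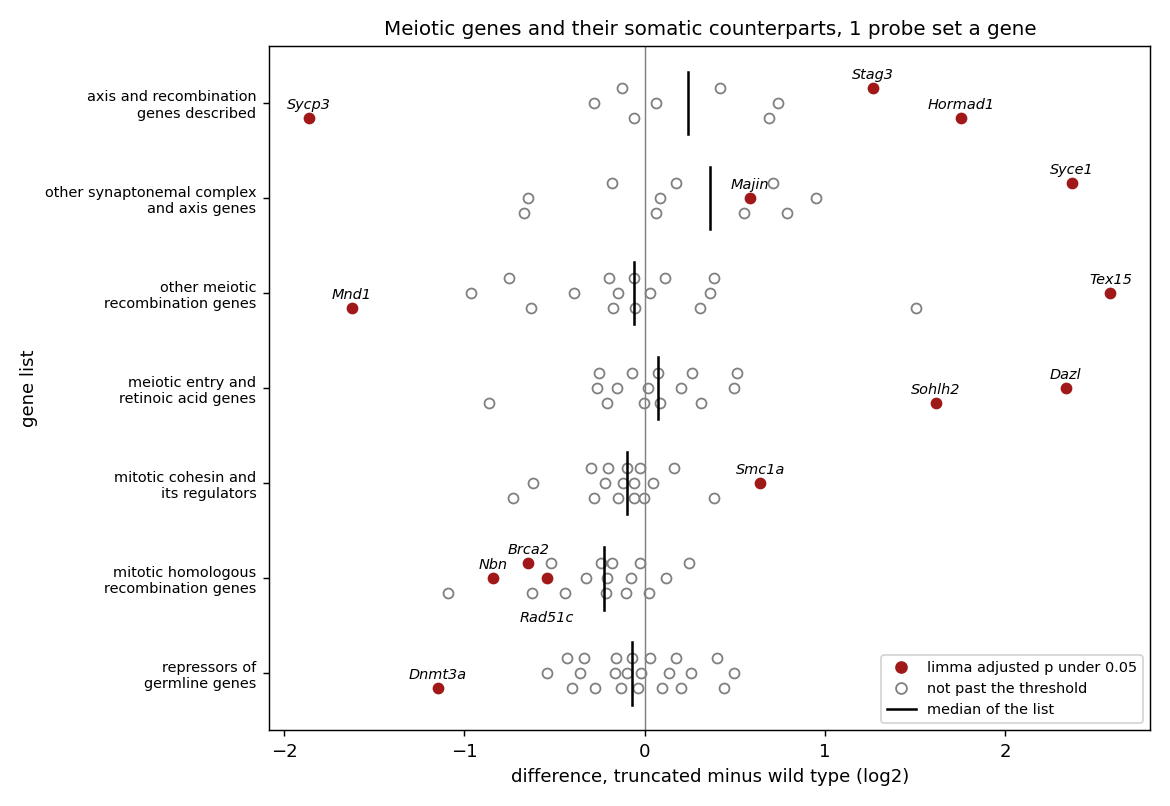
Difference of truncated minus wild type (log2, horizontal axis) for each measured gene of 7 lists, 1 probe set a gene; filled red circles passed a limma adjusted p of 0.05, open circles did not, and vertical bars are list medians. Sycp3 and Mnd1 lie far to the left, and Hormad1, Stag3, Syce1, Tex15, Dazl and Sohlh2 to the right, while the 3 called genes of mitotic homologous recombination are all below 0.

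The promoters of the 3 genes that changed are shown because they share sequence features that the array values did not use. RefSeq promoter windows of the mouse build GRCm38.p6, from 250 bases before to 50 after a transcription start, were matched for 9 of the 10 genes. They were searched on both strands for CACGTG, the E-box that MGA with MAX can bind, and for TCCCGC, a core of E2F sites; these 6-letter motifs were counted separately and do not overlap in the windows shown. Capitals mark both motifs on either strand (GCGGGA is TCCCGC on the other strand), and each sequence reads 5′ to 3′ on the strand of the gene. Sycp3 is at chr10:88459337-88459636 (plus strand), Hormad1 at chr3:95559427-95559726 (plus strand) and Stag3 at chr5:138280259-138280558 (plus strand); Sycp1, at chr3:102936051-102936350 (minus strand), is added as the other gene with both motifs.
Sycp3: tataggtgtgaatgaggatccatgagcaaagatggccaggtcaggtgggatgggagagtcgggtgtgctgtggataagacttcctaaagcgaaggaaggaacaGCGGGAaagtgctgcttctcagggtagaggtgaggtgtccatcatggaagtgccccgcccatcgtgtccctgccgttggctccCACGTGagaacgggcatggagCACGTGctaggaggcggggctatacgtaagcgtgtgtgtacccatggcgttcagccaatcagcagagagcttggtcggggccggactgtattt
Hormad1: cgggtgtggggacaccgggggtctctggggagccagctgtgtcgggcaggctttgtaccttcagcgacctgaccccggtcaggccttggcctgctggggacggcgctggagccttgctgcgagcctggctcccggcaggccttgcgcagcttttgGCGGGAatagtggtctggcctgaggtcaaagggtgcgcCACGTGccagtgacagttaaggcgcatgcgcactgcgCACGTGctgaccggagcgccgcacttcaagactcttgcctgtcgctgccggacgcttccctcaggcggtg
Stag3: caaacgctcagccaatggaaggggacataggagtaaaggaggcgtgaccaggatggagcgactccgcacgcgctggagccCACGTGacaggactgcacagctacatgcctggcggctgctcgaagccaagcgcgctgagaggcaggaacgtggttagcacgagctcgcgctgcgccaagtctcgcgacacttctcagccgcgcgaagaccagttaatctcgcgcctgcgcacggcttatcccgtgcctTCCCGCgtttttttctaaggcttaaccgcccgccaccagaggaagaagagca
Sycp1: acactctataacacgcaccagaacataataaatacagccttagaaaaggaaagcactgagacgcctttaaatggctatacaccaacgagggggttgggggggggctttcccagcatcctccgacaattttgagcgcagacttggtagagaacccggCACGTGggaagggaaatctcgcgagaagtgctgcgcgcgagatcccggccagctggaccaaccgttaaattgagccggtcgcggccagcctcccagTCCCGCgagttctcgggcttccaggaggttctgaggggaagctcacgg

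Of the 9 windows, 4 held CACGTG and all 4 of these also held TCCCGC. Among 21263 windows of protein-coding genes, 7.84% held CACGTG, 25.8% TCCCGC and 2.67% both. Both motifs contain CG, and these shares were not matched for CG content. Windows of Sycp3, Hormad1, Stag3 and Sycp1 held 15, 24, 30 and 21 CG pairs, against a median of 13 in protein-coding windows. Smc1b, Rec8 and Dmc1 held 29, 18 and 18, and Sycp2 and Stra8 10 each. Whether CG content accounts for the motif counts was not tested. Sycp3 and Hormad1 each had 2 copies of CACGTG, first bases at −64 and −43 and at −57 and −20 relative to the start, and Stag3 had 1 at −170. The 4 windows include the genes that rose, the gene that fell and Sycp1, which was read near the bottom of the scale in every array. Smc1b, Rec8 and Dmc1 had TCCCGC without CACGTG, and the windows of Sycp2 and Stra8 held neither in these letters. A half-site of retinoic acid receptors, AGGTCA, was present in Stra8, Sycp3 and Hormad1 (3 of 9 windows), against 14.7% of all windows. Of 4 genes of the other lists, chosen after their values were seen, Mnd1 held TCCCGC and Dazl, Syce1 and Sohlh2 held neither. A match describes the letters and does not show that a factor binds there.

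Over the 18 alternatives run, Sycp3 and Hormad1 passed in 13 each and Stag3 in 11. The direction of each was the same in all 18. Non-overlapping groups fix that direction when arrays are left out. Several alternatives, such as the spike-in batch term, leave the difference itself unchanged. The differences of Sycp3, Hormad1 and Stag3 ranged from −2.20 to −1.46, from 1.52 to 2.12 and from 1.02 to 1.56. Smc1b passed in 2 of 18, with array weights and in the 4 dim-spike arrays, and Dmc1 in 2 of 17. Sycp1, Sycp2, Rec8, Spo11 and Stra8 passed in 0.

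**Figure D5:**
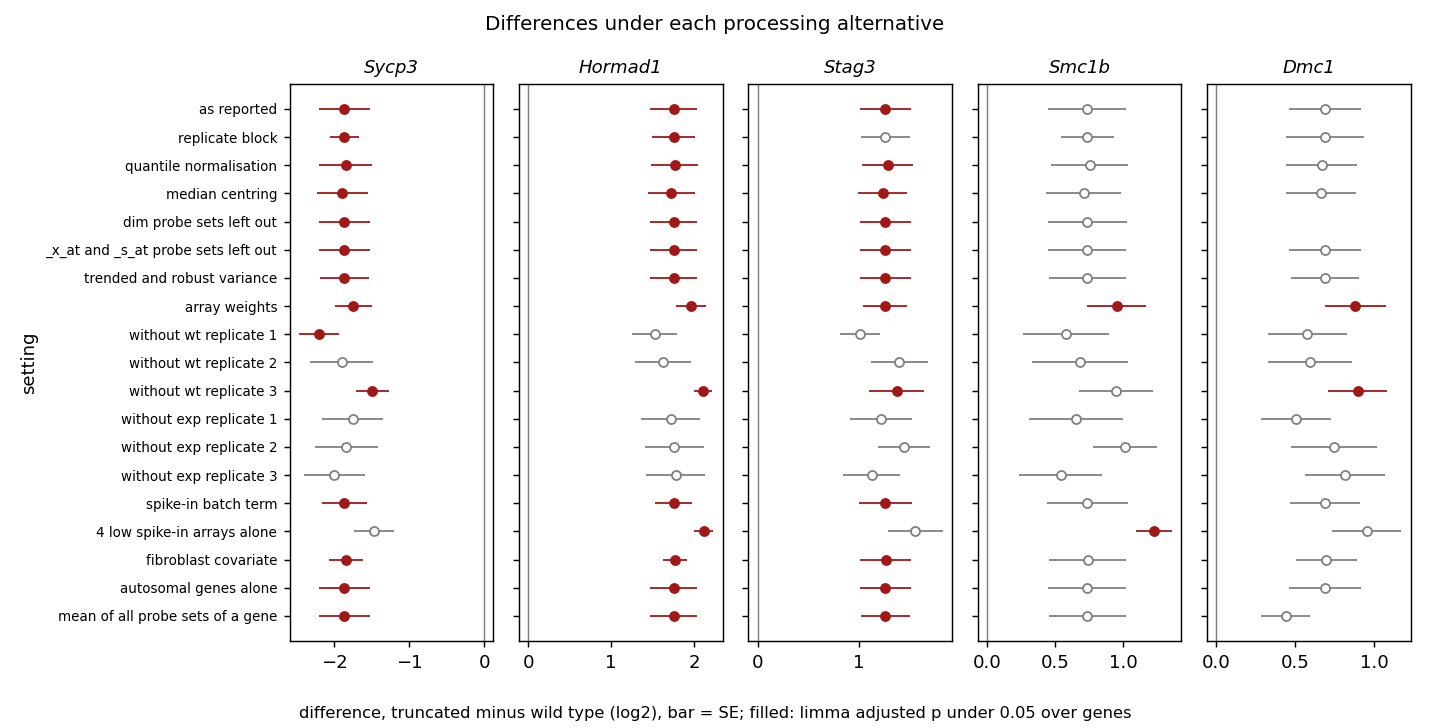
Difference of truncated minus wild type (log2, horizontal axes, bars = SE) for 5 of the genes under each setting (vertical axis); filled circles passed a limma adjusted p of 0.05 over genes, and a setting without a circle could not be run for that gene. Sycp3 stays below 0 and the other 4 genes above 0 under every setting shown. For Sycp3, Hormad1 and Stag3 the non-overlapping groups fix this when arrays are left out. Leaving out 1 array ends the call of Sycp3 in 4 of 6 cases and of Hormad1 and Stag3 in 5 of 6.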

How the data were processed

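Expression was measured on 6 Affymetrix Mouse Genome 430 2.0 arrays. The deposited values are on a log2 scale, 1 for each probe set, as processed by the authors; for their summarisation and normalisation, no method is given in the sources used here. The scale was read from the values. The number of arrays limits the precision. Array medians were 4.80 to 4.86, so values were used as deposited. Of 45101 probe sets, 64 controls were left out of tests. The 932 probe sets with several symbols named no gene. For each of 18193 genes, the probe set brightest on average over the 6 arrays was used.

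Groups were compared with lmFit and eBayes in limma 3.58.1 (R 4.3.3), group as the only term, two-sided, with Benjamini-Hochberg adjustment over all probe sets or all genes. Arrays sharing a replicate number did not deviate together (correlations 0.243, −0.304 and −0.102 for numbers 1 to 3), so the number was not used as a block. The fits were tested on simulated data. Every probe set of the 10 genes is described; in each of 6 pathway lists, up to 4 genes past the threshold are named by size, with a few fixed names. The genes and lists were chosen with earlier results of these data known. Symbols were checked against the RefSeq gene table of GRCm38.p6. Plots used matplotlib 3.10.9 in Python 3.11.15.

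Alternatives were a replicate block, median centring, quantile normalisation, dropping dim or cross-hybridising probe sets, another variance model, array weights, each array left out, a spike-in batch term, the 4 dim-spike arrays alone, a fibroblast covariate, autosomal genes alone and averaging a gene's probe sets.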

Additional observations from a re-analysis of the deposited data

How the results depend on the processing

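Of 599 pairs of a named gene or probe set and an alternative, 488 kept direction and side of the threshold, 82 lost the call, 18 gained it and 11 turned direction. Only differences under 0.5 turned: Rec8 to 0.045 in the 4 dim-spike arrays (−0.57 to 0.095 with 1 array left out, positive without wild-type replicate 3), Stra8 with 1 array left out (−0.15 to 0.94, negative without wild-type replicate 1), Smc3 to 0.10 with the mean of all probe sets, and Stag2 to 0.022 with quantile normalisation, 0.029 with array weights, 0.11 in the 4 dim-spike arrays, 0.094 with the mean of all probe sets and, with 1 array left out, −0.095 to 0.057. With 1 array left out, where fewer arrays are tested, the called counts were 0 to 2 of the 11 probe sets, 0 to 4 of the 10 genes, 149 to 1669 probe sets and 129 to 1191 genes in all. In the lists they were 1 to 3 (other synaptonemal complex and axis), 0 to 4 (other recombination), 0 to 2 (entry and retinoic acid), 0 to 1 (mitotic cohesin), 0 to 3 (mitotic recombination) and 0 to 3 (repressors). The replicate block, which the numbers do not support as a pairing, gave 731 probe sets, 466 genes, 1 other axis gene, 0 mitotic cohesin genes and 1 mitotic recombination gene. Array weights gave 2495 probe sets, 2057 genes, 5 of the 10 genes, and 5 other axis, 6 other recombination, 2 mitotic cohesin, 6 mitotic recombination and 7 repressor genes. The spike-in batch term gave 2366 probe sets, 1569 genes, and 4, 5, 3, 5 and 2 genes of those 5 lists. The 4 dim-spike arrays alone gave 931 of 18193 genes, and 4 other axis, 5 other recombination, 1 mitotic recombination and 3 repressor genes. The fibroblast covariate gave 3181 probe sets, 1968 genes, and 4 other axis, 5 other recombination, 4 entry, 4 mitotic cohesin, 6 mitotic recombination and 4 repressor genes. Without dim probe sets 1 other axis gene was called; among autosomal genes alone 1 entry and 0 mitotic cohesin genes were; the mean of all probe sets gave 1 entry gene. Where these counts differ for a reason other than fewer arrays or genes tested, the cause was not tested. Probe sets near background (Sycp1, Sycp2, Spo11 and both of Dmc1) limit what could be seen for those genes.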

Other observations

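Several further meiotic genes stood apart between the groups without passing the limma test over genes; they were chosen after their values were seen, and 11.6% of all genes were higher and 10.9% lower without overlap. Rec114, a partner of the break machinery around SPO11, had a mean of 6.08 ± 0.80 among wild-type arrays and 7.58 ± 0.20 among truncated arrays (SD, n = 3; adjusted p = 0.0770). Mei4, which acts with Rec114, was at 4.77 ± 0.31 and 3.81 ± 0.41 (adjusted p = 0.0780). Mlh3, of crossover resolution, was at 6.86 ± 0.06 and 6.23 ± 0.25 (adjusted p = 0.0547). Hormad2, the relative of Hormad1, was at 5.03 ± 0.16 and 5.74 ± 0.42 (adjusted p = 0.126). Tex12, a central element partner in the synaptonemal complex, was at 4.04 ± 0.21 and 4.59 ± 0.06 (adjusted p = 0.0584), and the X-linked Tex11 at 3.94 ± 0.34 and 4.89 ± 0.41 (adjusted p = 0.0888). Both group means of Mei4 and Tex12, and the wild-type mean of Tex11, lay below the median of all probe sets (4.82), which limits what their values can show.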
